A study of Caenorhabditis elegans with 2 samples.

Results

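The genes described here are the tRNA genes of the Caenorhabditis elegans nuclear chromosomes that lie wholly between the start and the end of a protein-coding gene, on either strand. In the Ensembl gene models (WBcel235, the assembly also called ce11) 290 of 612 nuclear tRNA genes met this rule, and the other 322 lay outside. The data are chromatin immunoprecipitation followed by sequencing (ChIP-seq) of whole midembryos (3 hours, collected by bleaching) of strain RW12224. In this strain CRISPR had fused a TY1, EGFP and 3xFLAG tag to ref-1 at its own locus (st12224[ref-1::TY1::EGFP::3xFLAG] II), and an antibody against GFP pulled down the tagged protein. There were 2 biological replicates of this 1 group and no second group, so members were compared among themselves and with the tRNA genes outside, without p-values. The control library named in the labels was not analysed here, and whole embryos mix all cell types.

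tRNA genes are transcribed by RNA polymerase III. The factor TFIIIC recognises an A box and a B box inside the gene, TFIIIB then sits just before the gene, and a run of T residues after the gene ends transcription. REF-1 is a HES-related protein with a pair of basic helix-loop-helix domains, from a nematode family, several of whose genes respond to Notch in embryos. A tRNA gene within an intron keeps its own internal promoter and may face along or against its host.

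The genes below are examples of bound members from 7 amino acid families, all with both boxes found. The A box (TNGNNNAG, sought in the first 30 bases) and the B box (GTTCNANNC, sought after base 30) are in capitals. Both were found in 91 of the 112 bound members, so the examples do not stand for all of them. Each sequence was read from the RefSeq genome (WBcel235), from 5′ to 3′ along the strand of the tRNA gene.
C02B4.t2 (tRNA-Tyr, X:12665228-12665311, plus strand, in nhr-17): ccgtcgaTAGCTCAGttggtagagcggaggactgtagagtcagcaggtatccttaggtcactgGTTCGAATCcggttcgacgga
F15G9.t1 (tRNA-Ala, X:9743589-9743660, plus strand, in him-4): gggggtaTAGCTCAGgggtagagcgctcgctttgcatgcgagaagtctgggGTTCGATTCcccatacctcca
F29C4.t1 (tRNA-Arg, IV:143982-144054, plus strand, in col-99): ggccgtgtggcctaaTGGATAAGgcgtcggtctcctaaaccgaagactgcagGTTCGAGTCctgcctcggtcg
C06G1.t1 (tRNA-His, X:16634830-16634901, minus strand, in C06G1.1): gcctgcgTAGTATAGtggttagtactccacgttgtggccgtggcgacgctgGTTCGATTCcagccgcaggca
R04A9.t1 (tRNA-Gln, X:410391-410462, plus strand, in ZK1193.2): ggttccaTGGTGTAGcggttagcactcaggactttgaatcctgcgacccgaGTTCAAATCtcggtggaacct
Y39A1A.t1 (tRNA-Thr, III:10624742-10624813, minus strand, in hpr-9): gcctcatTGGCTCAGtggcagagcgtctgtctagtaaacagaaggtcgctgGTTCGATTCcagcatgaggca
B0212.t1 (tRNA-Pro, IV:3552189-3552260, minus strand, in osm-9): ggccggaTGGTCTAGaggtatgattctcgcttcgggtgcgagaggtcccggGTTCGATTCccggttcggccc

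A member was called bound where the authors' conservative thresholded set held a peak summit in the gene or within 100 bp of it. By this rule 112 of the 290 members were bound, or 38.6% (exact 95% binomial interval 33.0 to 44.5%), beside 36.1% of all nuclear tRNA genes. Outside protein-coding genes 109 of 322 tRNA genes were bound, or 33.9% (28.7 to 39.3%). The difference, members minus outside genes, was 4.77 percentage points, with a Newcombe 95% interval of -2.83 to 12.3. The share of members was thus close to that of all tRNA genes, and the interval of the difference included 0. Intervals cover counting error only. They treat genes of the same 2 libraries as separate draws, so they hold no variation between replicates. The depth of the libraries is also unknown.

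Each replicate's own thresholded set held fewer members. Replicate 1's own set had a summit at 73 members (25.2%) and at 85 outside genes (26.4%), beside 25.8% of all tRNA genes. Replicate 2's own set had a summit at 84 members (29.0%) and at 77 outside genes (23.9%), beside 26.3% of all tRNA genes. The difference was -1.23 points (-8.11 to 5.74) in replicate 1 and 5.05 points (-1.93 to 12.03) in replicate 2, so its direction was not shared. The second thresholded set of the pair had a summit at 110 members and 103 outside genes, beside 34.8% of all tRNA genes.

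Of the 112 bound members, 63 were in the own sets of both replicates, 27 were in the set of 1 replicate and 22 in neither. The 63 shared members were 86.3% of those in replicate 1's set and 75% of those in replicate 2's set. Among unbound members, 4 had a peak in replicate 2's own set and in the other thresholded set, and 0 had one in replicate 1's own set. These 4, picked after their values were seen, were Y43F4A.t1 (Tyr), C09B9.t1 (Lys), R11B5.t1 (Thr) and C03F11.t1 (Met). Of the 178 unbound members, 100 had a candidate summit within the window in the ranked list of the pair and 78 had none. For 54 unbound members none of the 4 ranked lists held a candidate.

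The ranked list gives each candidate the signals of its 2 inputs. At all 112 bound members the interval and signal of input 1 equalled an entry of replicate 1's own ranked list, and those of input 2 an entry of replicate 2's. The scale of the deposited signal is not stated. At bound members input 1 ranged from 29.5 to 191.6, with a median of 59.2. At unbound members with a candidate it ranged from 9.3 to 35.8, with a median of 20.2. Input 2 ranged from 36.8 to 246.2 at bound members, with a median of 71.0, and from 8.8 to 65.9 at unbound ones, with a median of 25.02. The score that sets the state is computed from these inputs, so this contrast is part of the rule. The 2 states overlapped from 29.5 to 35.8 in input 1 and from 36.8 to 65.9 in input 2. Input 2 was above input 1 at 82 of the 112 bound members, beside 61.4% of all ranked entries. Across the bound members the inputs had a Spearman correlation of 0.79 and, on the log2 scale, a Pearson correlation of 0.84 (n = 112 genes from the same 2 libraries, a description with no p). Bound members were selected by a score computed from these inputs, so their agreement is partly set by the rule. Over all 212 members with a candidate, bound or not, the correlations were 0.86 and 0.86.

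**Figure D1:**
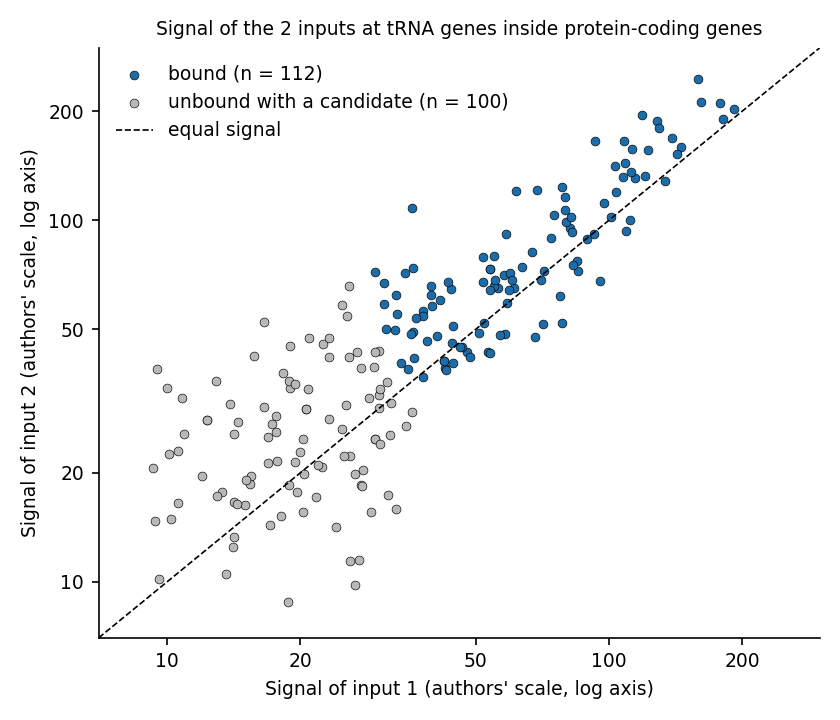
Signal of input 1 (horizontal) and of input 2 (vertical) of the authors' ranked list at each member with a candidate summit, both on log axes in the authors' unstated unit. Each point is 1 tRNA gene, blue for the 112 bound and grey for the 100 unbound with a candidate, and the dashed line marks equal signal, above which 82 of the blue points lie.

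Bound members carried some of the stronger peaks of the set. Their signal ran from 67.5 to 401.3, with a median of 131.7 and quartiles of 97.6 and 202.6. Bound outside genes had a median of 157.4 and quartiles of 106.9 and 206.4, and all 675 entries a median of 102.3. Members accounted for 16.3% of all entries and for 23 of the 100 strongest.

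The strongest was F41D9.t3, an Asn gene at X:8404499-8404571 (plus strand) in an intron of sulp-3, a member of the sulfate permease family of anion transporters. Its signal was 401.3 in the conservative set, 159.2 in replicate 1's own set and 246.2 in replicate 2's. C02B4.t2, the Tyr gene printed first above, lies in an intron of the nuclear hormone receptor gene nhr-17. Its signal was 397.5 in the conservative set, 191.6 in replicate 1's set and 203.3 in replicate 2's. F17H10.t1 (Gly, X:13121261-13121331) in the sorting nexin gene snx-17 had a signal of 389.5 in the conservative set, 178.1 in replicate 1's set and 210.9 in replicate 2's. In all 3 genes both replicates were far above the medians over bound members, and replicate 2 was the higher.

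F15G9.t1 (Ala), printed above, had a signal of 382.7 and lies in him-4, which encodes hemicentin, an extracellular matrix protein. C28G1.t1 (Glu, X:8836113-8836184) had 364.5 and overlaps an annotated UTR of C28G1.2. F29C4.t1 (Arg) had 326.5 and lies in col-99, a collagen gene. The Ala and Glu genes face along their hosts and the Arg gene against its host. B0523.t1 (Trp, III:8678497-8678568) had 323.3 in fli-1, which encodes the actin-binding flightless homolog. C06G1.t1 (His) had 314.6 in C06G1.1, and F33G12.t1 (Ile, II:5032771-5032844) had 304.3 in F33G12.3. F38G1.t2 (Asp, X:489868-489939) had 303.7 in the fibroblast growth factor gene egl-17. E03E2.t1 (Ser, X:5708028-5708109) had 297.2 in cat-1, the vesicular monoamine transporter gene, and C37A2.t1 (Cys) had 280.2 in the cyclin E gene cye-1. Each of these 12 members was also in the own set of both replicates, and they belong to 12 amino acids.

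The other amino acids with a bound member had weaker leaders. T15B12.t1 (Met) had a signal of 256.2, T28B4.t1 (Phe) in the F-box gene fbxl-4 had 255.6 and C04A2.t1 (Leu) had 246.8. R04A9.t1 (Gln) had 241.1, Y39A1A.t1 (Thr) in hpr-9, the RAD9 homolog of the DNA damage clamp, had 222.0 and F22G12.t1 (Val) had 187.0. K04C2.t3 (Lys) in brd-1, the BARD1 homolog, had 179.6. The lowest leader was B0212.t1 (Pro) with 131.6, in osm-9, which encodes a TRPV channel. Its entry was in replicate 1's own set, with 70.3, and not in replicate 2's.

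On either side of the authors' threshold the score, a log transform of the global irreproducible discovery rate (IDR), ran as follows. The bound members of lowest score were C56G7.t1 (Lys, in hecw-1, a HECT ubiquitin ligase gene) at 855, F08G5.t2 (Gln) at 880 and C17D12.t3 (Leu, in spe-9) at 884. The unbound members of highest score were ZK970.t4 (Pro, in clpp-1, a mitochondrial protease gene) at 796 and K01A12.t4 (Cys) at 775. H08J11.t3 (Gln) followed at 725, C05E7.t3 (Leu, in gmap-2) at 721 and F56F10.t1 (Tyr, in the polarity gene lgl-1) at 647. Their signals of 60.7 to 75.5 lay close to those of F08G5.t2 (67.5) and C17D12.t3 (73.7), and C56G7.t1 had 96.1. In this ranked list no unbound member reached the score of 830 at which the authors' sets begin.

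Every amino acid with more than 3 members had bound and unbound genes. The share was 9 of 13 for Asp (69.2%, 38.6 to 90.9%), 8 of 12 for Glu (66.7%, 34.9 to 90.1%) and 4 of 6 for Phe. At the low end stood Tyr with 1 of 8 (12.5%, 0.316 to 52.7%), Pro with 4 of 22 (18.2%, 5.19 to 40.3%) and Gln with 3 of 12. The larger families Gly (9 of 27), Lys (11 of 26), Arg (7 of 21), Leu (7 of 20) and Ile (7 of 18) lay between 33.3% and 42.3%. Among outside genes Asp had 4 of 14 bound (28.6%) and Glu 8 of 29 (27.6%). The selenocysteine gene K11H12.t1 was unbound, as were 3 members without an amino acid in RefSeq (DY3.t2, C08E8.t3 and F47E1.t3). The intervals of all amino acids overlapped.

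**Figure D2:**
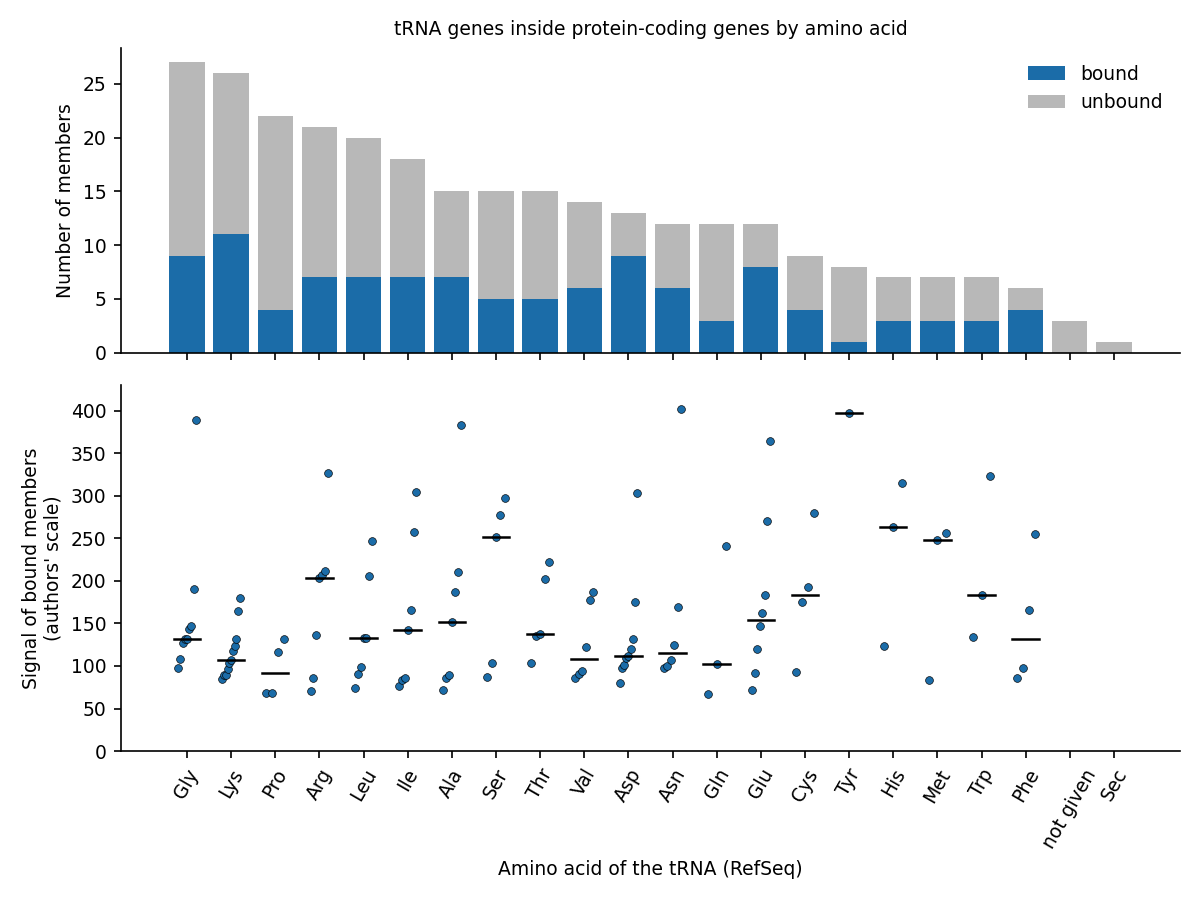
Upper panel, number of members per amino acid, bound (blue) and unbound (grey). Lower panel, signal of each bound member in the conservative set (authors' scale) with the median as a bar; every amino acid with more than 1 bound member has one below 150, and 12 genes reach 280.2 or more.

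The summits lay on the genes themselves. From the first base of the tRNA gene the summit had a median position of 24.5 bp, with quartiles of 12.8 and 38.2 and extremes of -81 and 101. It fell within the gene at 97 bound members, before it at 13 and after it at 2 (T04D3.t2 and F10C1.t2, named after their values were seen). In the own sets the median was 21 bp in replicate 1 and 25 bp in replicate 2. Bound outside genes had a median of 20 bp and quartiles of 10 and 31, with 96 summits in the gene, 10 before it and 3 after it. The A box letters began at a median of base 8 and the B box letters at a median of base 53 of the bound members. Both boxes were found in 91 bound members, and in 72 of these the summit fell from the start of the A box to the end of the B box. The summit thus lay on or between the boxes in most of the bound members in which both were found. The rule itself keeps every summit within 100 bp of the gene.

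**Figure D3:**
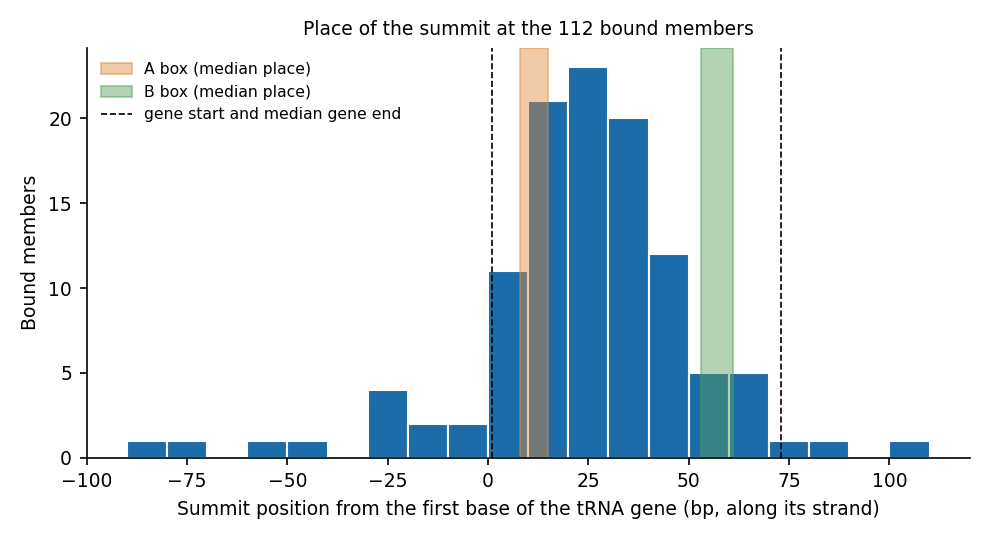
Number of bound members by the position of the summit, in bp from the first base of the tRNA gene along its strand, in bins of 10 bp. The shaded bands mark the median places of the A box and of the B box, the dashed lines the gene start and the median gene end, and 97 of the 112 summits lie in the gene.

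The letters of the promoter itself were alike in bound and unbound members. The A box letters were in 84.8% of bound and 82.0% of unbound members, beside 83.5% of all tRNA genes. The B box letters were in 96.4% of bound and 96.1% of unbound members, beside 95.9% of all. TTTT stood within 20 bases after the gene in 99.1% of bound and 98.9% of unbound members. CACGCG, a class C site that HES-related proteins recognise in other animals, was in the gene or its 100 bp flanks on either strand in 18 of 112 bound members (16.1%) and 29 of 178 unbound members (16.3%), beside 16.01% of all tRNA genes.

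Identical genes differed in state. The members hold 120 distinct gene sequences, of which 42 occur in 2 or more members. Of these 42, 32 had both bound and unbound members, 4 had only bound and 6 only unbound ones. The 4 with only bound members had 2 members each (W09G10.t1 and C06G1.t1 of His, F47G6.t1 and Y92H12A.t1 of Arg, T07H6.t1 and F15G9.t1 of Ala, C04A2.t1 and C16D9.t2 of Leu) and were named after their values were seen. The most frequent sequence, of Ile, had 6 of 13 members bound. The leading Asp sequence had 8 of 10 members bound, the leading Asn sequence 6 of 11 and the leading Pro sequence 2 of 11. Within these 32 sequences bound and unbound copies have the same gene bases and differ in what lies around them.

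The bases before the gene differed between the states. Bound members had a median GC content of 47% in the 100 bp before the gene (quartiles 43 and 50%), against 38.5% for unbound members (33.2 and 44%). In the 100 bp after the gene the medians were 34% in bound and 31% in unbound members. Outside protein-coding genes the medians before the gene were 46% in bound and 37% in unbound genes, and those after it 29% and 28%. The GC content of the gene itself had medians of 59.7% in bound and 58.3% in unbound members. The contrast was thus largest on the side before the gene, in both locations. An exon of a protein-coding gene came within 100 bp of 180 of the 290 members, so the flanks of members are not intron bases alone.

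Members were put in 4 classes by the GC content before the gene, with limits of 35, 42 and 47% taken over all 612 tRNA genes. From the lowest class to the highest 3 of 61, 18 of 83, 42 of 73 and 49 of 73 members were bound, or 4.92%, 21.7%, 57.5% and 67.1%. The highest class exceeded the lowest by 62.2 points (47.9 to 72.4). In the own sets of the replicates this difference was 48.8 points in replicate 1 (35.0 to 60.1) and 51.2 points in replicate 2 (37.0 to 62.5). Outside genes gave 4 of 94, 28 of 92, 33 of 67 and 44 of 69, a difference of 59.5 points (46.2 to 70.2). For the 100 bp after the gene the same difference was 27.7 points (11.5 to 40.7) among members and 15.98 points (0.732 to 31.0) outside. In replicate 2's own set the members' difference after the gene was 9.35 points (-6.12 to 22.6). The steep relation before the gene was therefore present in both locations and both replicates, and is not particular to members. No control library was analysed here, so how read coverage varies with GC content at these genes was not measured. The classes were chosen after the data were seen.

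**Figure D4:**
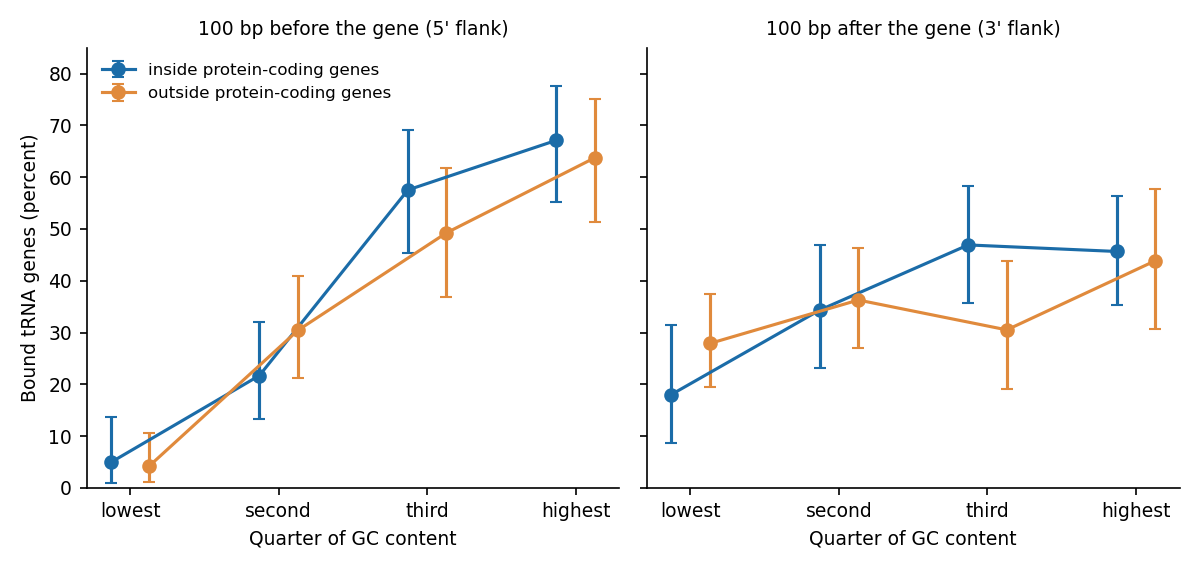
Share of tRNA genes with a summit within 100 bp (percent) by class of GC content, from the lowest to the highest, in the 100 bp before the gene (left) and after it (right). Blue points are genes inside and orange points genes outside protein-coding genes, with exact 95% binomial intervals; on the left both lines climb from under 5% to over 60%, on the right neither passes 47%.

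The 3 bound members of the lowest class, named after their values were seen, were F52H2.t1 and F59C12.t2 (both Asp) and T07H6.t1 (Ala). Their signals were 131.1, 119.9 and 86.3. Among bound members the GC content of both flanks had a Spearman correlation of 0.046 with the signal (n = 112 genes, a description with no p). Over all 212 members with a candidate, bound or not, the correlation was 0.427. Among the 32 sequences with both states, the mean GC content before the gene was higher in bound copies for 29, with a median difference of 7.14 points. After the gene it was higher in bound copies for 18 of 32, with a median difference of 0.75 points.

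A scan of all 1024 words of 5 bases in the 100 bp before the members, read along the tRNA strand, put CTCTC first by bound minus unbound share. It stood before 44 of 112 bound members (39.3%) and 23 of 178 unbound members (12.9%). The word was picked on these genes, so their counts are a description. In the outside genes, which had no part in the pick, it stood before 45 of 109 bound genes (41.3%) and 20 of 213 unbound ones (9.39%), where it ranked second of all words. Seen the other way, 45 of 65 outside genes with CTCTC were bound and 64 of 257 without it, a difference of 44.3 points (31.0 to 55.4). It was 36.3 points (23.2 to 48.6) in replicate 1's own set and 35.6 points (22.6 to 47.9) in replicate 2's. The word stood before 21.6% of all tRNA genes.

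Its reverse complement, GAGAG, stood before 18.8% of bound and 6.74% of unbound members, and before 17.4% of bound and 5.63% of unbound outside genes. After the gene CTCTC was found at 7.14% of bound and 6.18% of unbound members. Among the 32 sequences with both states, 33 of 88 bound copies (37.5%) and 12 of 102 unbound copies (11.8%) had it before the gene. At the other end of the scan, ATTTT stood before 25% of bound and 50.6% of unbound members, and before 24.8% of bound and 47.9% of unbound outside genes. Among members, on which the word was picked, the contrast by word varied with the GC content of the 2 flanks together. Above 40% GC 29 of 34 members with CTCTC and 32 of 56 without it were bound. Above 36 and up to 40% it was 12 of 22 with the word and 23 of 57 without it, above 31.5 and up to 36% 2 of 8 and 9 of 56, and up to 31.5% 1 of 3 and 4 of 54. Among outside genes 20 of 22 with the word and 17 of 36 without it were bound above 40% GC. In the next class down it was 14 of 19 and 21 of 58, then 7 of 16 and 19 of 73. Up to 31.5% it was 4 of 8 and 7 of 90. In hosts with 3 or more members 0 of 3 members with the word and 6 of 43 without it were bound. Where an exon came within 100 bp of the member, 34 of 47 with the word and 48 of 133 without it were bound. Where none did, it was 10 of 20 with the word and 20 of 90 without it. Of the 12 strongest members 8 had the word. A match is a description of letters and was not tested as a site.

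The next sequences show this contrast in pairs of identical tRNA genes. Each pair is the strongest bound member of a sequence and the unbound member with the lowest score, and 6 of 12 such pairs are shown, chosen after their values were seen to include pairs with and without the contrast. Over the 12 pairs the GC content before the gene was higher in the bound copy in 8, equal in 1 and lower in 3. CTCTC stood before the bound copy only in 5, before the unbound copy only in 2 and before neither in 5. The 100 bases before each gene are printed along its strand (WBcel235) with CTCTC in capitals.
C02B4.t2 (bound, tRNA-Tyr, X:12665128-12665227, plus strand, in nhr-17): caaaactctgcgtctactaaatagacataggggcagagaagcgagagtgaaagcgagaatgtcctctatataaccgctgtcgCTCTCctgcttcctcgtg
F56F10.t1 (unbound, tRNA-Tyr, X:865473-865572, minus strand, in lgl-1): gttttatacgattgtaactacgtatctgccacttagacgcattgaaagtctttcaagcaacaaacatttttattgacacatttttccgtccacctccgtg
R04A9.t1 (bound, tRNA-Gln, X:410291-410390, plus strand, in ZK1193.2): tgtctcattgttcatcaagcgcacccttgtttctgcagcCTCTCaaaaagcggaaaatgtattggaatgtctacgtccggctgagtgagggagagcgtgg
R09E10.t1 (unbound, tRNA-Gln, IV:10311303-10311402, minus strand, in acs-18): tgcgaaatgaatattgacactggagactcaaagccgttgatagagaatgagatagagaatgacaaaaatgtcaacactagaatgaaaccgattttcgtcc
F15B9.t1 (bound, tRNA-Ala, V:13003581-13003680, minus strand, in inft-2): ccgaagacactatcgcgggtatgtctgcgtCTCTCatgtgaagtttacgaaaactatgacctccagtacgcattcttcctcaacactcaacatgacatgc
F15G9.t2 (unbound, tRNA-Ala, X:9743647-9743746, plus strand, in him-4): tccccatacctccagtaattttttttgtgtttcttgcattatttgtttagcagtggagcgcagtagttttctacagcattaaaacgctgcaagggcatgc
B0212.t1 (bound, tRNA-Pro, IV:3552261-3552360, minus strand, in osm-9): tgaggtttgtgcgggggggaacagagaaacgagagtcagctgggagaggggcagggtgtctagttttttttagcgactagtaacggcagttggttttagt
ZK617.t1 (unbound, tRNA-Pro, IV:12005670-12005769, minus strand, in unc-22): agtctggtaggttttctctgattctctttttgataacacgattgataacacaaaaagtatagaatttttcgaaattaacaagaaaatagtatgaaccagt
Y39A1A.t1 (bound, tRNA-Thr, III:10624814-10624913, minus strand, in hpr-9): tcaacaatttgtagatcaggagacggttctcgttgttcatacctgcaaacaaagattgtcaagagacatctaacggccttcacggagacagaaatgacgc
R04D3.t5 (unbound, tRNA-Thr, X:13283709-13283808, minus strand, in cyp-14A4): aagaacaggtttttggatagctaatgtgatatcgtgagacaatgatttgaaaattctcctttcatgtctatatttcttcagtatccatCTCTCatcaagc
F02E11.t1 (bound, tRNA-Ser, II:3267889-3267988, plus strand, in F02E11.7): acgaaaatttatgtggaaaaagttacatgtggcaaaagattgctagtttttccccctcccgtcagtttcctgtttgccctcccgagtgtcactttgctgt
Y51H7BR.t1 (unbound, tRNA-Ser, II:1519935-1520034, plus strand, in Y51H7BR.8): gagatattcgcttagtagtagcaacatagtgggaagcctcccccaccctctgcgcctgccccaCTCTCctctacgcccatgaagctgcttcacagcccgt

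In the Tyr pair the GC content before the gene was 49% in the bound copy and 38% in the unbound copy. It was 50 and 38% in the Gln pair, 47 and 41% in the Ala pair and 51 and 29% in the Pro pair, bound copy first. The unbound copy of the Ala pair, F15G9.t2, lies 87 bp after the strongly bound F15G9.t1. Its printed bases therefore begin in F15G9.t1 and lie partly under the peak of that gene (X:9743512-9743712). In the Tyr pair the unbound F56F10.t1 scored 647, among the highest scores of unbound members. The Thr and Ser pairs show the limits of the word. In the Thr pair it stands only before the unbound R04D3.t5, although the bound copy has 44% GC and the unbound one 34%. In the Ser pair the unbound Y51H7BR.t1 has the word and the higher GC content, 58% against 44% in the bound F02E11.t1. F02E11.t1 was among the weaker bound members, with a signal of 86.7.

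By strand of the host the shares lay close together. Of members on the same strand as every host 64 of 166 were bound (38.6%, 31.1 to 46.4%), against 48 of 123 on the opposite strand (39.0%, 30.4 to 48.2%). The difference, same minus opposite, was -0.47 points, with an interval from -11.8 to 10.7 that included 0. The 1 member with hosts on both strands was unbound. Nearly all members lay in introns: 282 overlapped no exon of a host transcript and lay within at least 1 such transcript. Of these 282, 107 were bound (37.9%). Of 7 members that overlap an annotated UTR 5 were bound, namely C28G1.t1, F02E11.t1, Y69A2AR.t2, W02G9.t2 and K04A8.t2, and K02D7.t1 and Y54G2A.t1 were not. A class of 7 is too small to set apart from the 38.6% bound among all members. The 1 member between transcripts, K09C6.t1, was unbound. The host intron had a median length of 360.5 bp for bound and 566 bp for unbound members.

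The number of tRNA genes in the host went with the state. The 290 members lay in 228 host genes, of which 182 held 1 member, 32 held 2, 12 held 3 and 2 held 5. A member inside overlapping hosts was classed by the host with the most members. Members of hosts with 1 were bound in 88 of 180 cases (48.9%, 41.4 to 56.4%), of hosts with 2 in 18 of 64 (28.1%, 17.6 to 40.8%) and of hosts with 3 or more in 6 of 46 (13.0%, 4.94 to 26.3%). Members of hosts with 2 or more minus those of hosts with 1 differed by -27.1 points (-36.9 to -15.9). The same difference was -17.1 points (-26.0 to -7.08) in replicate 1's own set and -20.3 points (-29.6 to -9.85) in replicate 2's. The GC content of both flanks moved with it: its median was 35.8% in hosts with 2 or more members and 39% in hosts with 1. Among members with over 36% GC in the 2 flanks together the difference was -23.7 points (-38.4 to -7.45), and among those with up to 36% it was -15.5 points (-27.5 to -3.34). The distance to the next tRNA gene also moved with the grouping. Its median was 369 bp in hosts with 2 or more members and 54678.5 bp in hosts with 1. The difference by members per host was not split by this distance. This grouping was made after the data were seen.

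Both hosts with 5 members had none bound. ajm-1, an apical junction gene, holds 5 Gln genes within 1 intron of 1768 bp. Of these, H08J11.t3 scored 725, H08J11.t5 scored 415 and H08J11.t1, H08J11.t2 and H08J11.t4 had no candidate in the ranked list of the pair. K01A12.3 holds 3 Cys and 2 Arg genes, of which K01A12.t4 scored 775, K01A12.t2 scored 137 and K01A12.t1, K01A12.t3 and K01A12.t5 had no candidate in that list. In replicate 1's own ranked list H08J11.t1 and K01A12.t5 each shared the candidate of a neighbouring member. In replicate 2's own ranked list K01A12.t3 did. The next hosts, brd-1 and deg-1, are the first by gene identifier of 12 hosts with 3 members. Of 3 members in brd-1 only K04C2.t3 (Lys) was bound, while the Gly genes K04C2.t2 scored 635 and K04C2.t1 had no candidate. The 3 Asn genes of deg-1, which encodes a channel of the DEG/ENaC family, were unbound, with scores of 82 for ZK154.t1 and 300 for ZK154.t5. The other 10 hosts with 3 members had 5 of 30 bound. In each of the 4 hosts described at least 1 member had a candidate in the ranked list of the pair and at least 1 had none there. More than 1 bound member was found in 4 hosts, spe-9, F14B4.1, rsa-2 and F49D11.10 (named after their values were seen). In rsa-2 and in F49D11.10 a single summit served both members, so the 112 bound members rested on 110 distinct summits.

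The distance to the next tRNA gene also went with the state, though not step by step. Up to 500 bp 10 of 61 members were bound, above that and up to 2000 bp 17 of 46, above that and up to 10000 bp 14 of 50 and beyond 10000 bp 71 of 133. Bound members had a median of 24026 bp to the next tRNA gene, against 3006 bp for unbound members. Outside genes had medians of 5301 bp when bound and 797 bp when unbound, so this contrast is not particular to members.

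Copy number of the sequence also went with the state. Members whose sequence occurs once among all nuclear tRNA genes were bound in 12 of 68 cases (17.6%, 9.46 to 28.8%), against 100 of 222 members with 2 or more copies (45.05%, 38.4 to 51.8%). The difference was -27.4 points (-37.2 to -14.9), and it was -15.6 points in replicate 1's own set and -18.6 points in replicate 2's. Outside genes gave 20 of 75 against 89 of 247, a difference of -9.37 points with an interval from -20.0 to 3.01. Among genes with 2 or more copies the bound share of members exceeded that of outside genes by 9.01 points (0.127 to 17.7), and among genes with 1 copy it differed by -9.02 points (-22.2 to 4.78). The first of these was 10.1 points (1.30 to 18.8) in the second thresholded set, 0.084 points (-8.05 to 8.29) in replicate 1's own set and 8.23 points (0.0069 to 16.4) in replicate 2's. So for repeated sequences the interval lay just above 0 in replicate 2's own set and in the 2 thresholded sets of the pair. Those 2 sets share 106 bound members and are not independent. In replicate 1's own set the interval included 0. The split was made after the data were seen. How reads from repeated sequence were placed is not given in the sources used. The share of 36-base words of the gene and its flanks that occur once in the genome had a median of 79.3% in bound and 79.8% in unbound members. Most of these words reach into the flanks, and the share for the bases of the gene alone is not given here.

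By chromosome 31 of 96 members on X were bound (32.3%, 23.1 to 42.6%), against 81 of 194 on the autosomes (41.8%, 34.7 to 49.0%). The difference was -9.46 points (-20.5 to 2.48), an interval that included 0. The autosomes ranged from 15 of 48 on V to 20 of 39 on I. The relation with GC content before the gene was found on both: highest minus lowest class gave 72.1 points on X (38.9 to 86.6) and 64.5 points on the autosomes (47.7 to 75.3).

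**Figure D5:**
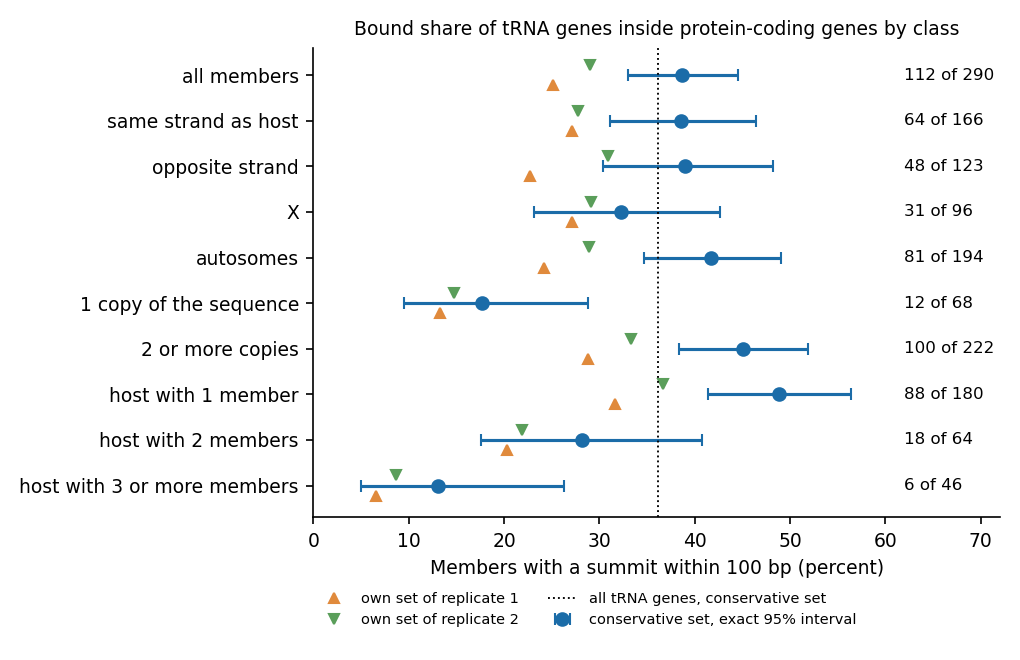
Share of members with a summit within 100 bp (percent) by class, with the counts at the right. Circles are the conservative set with exact 95% binomial intervals, triangles the own sets of the replicates and the dotted line the 36.1% of all tRNA genes; single-copy members and members of hosts with 3 or more lie lowest, and the 2 classes of host strand lie close together.

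Peaks at members seldom lay at the start of the host. A summit stood in the promoter window, from 1000 bp upstream to 200 bp downstream of a transcript start, of 16 of 228 hosts (7.02%), beside 1.42% of all protein-coding genes. For 10 of the 16 it was the summit at the member itself. A promoter summit away from the members was found at 6 hosts (2.63%). Hosts were long, with a median of 5174 bp against 2027 bp for all protein-coding genes. Among gene classes with 3 or more hosts, the 4 collagen genes col-54, col-72, col-85 and col-99 each had their single member bound, beside 38.6% of all members. The 5 potassium channel genes of the twk class had 2 of 7 members bound, the 7 unc genes, a class named for uncoordinated movement, 2 of 10 and the 3 nuclear hormone receptor genes 2 of 4. The 3 tbc genes, of the Rab GTPase-activating class, had 0 of 5. These classes hold too few members to set them apart.

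Promoter summits were also counted at the protein-coding genes that serve tRNAs. Of 32 aminoacyl-tRNA synthetase genes found in the annotation (35 listed), 1 had a summit in its promoter window (3.12%, beside the 1.42% above), namely ears-2, with a signal of 248.2. Of 12 genes of the RNA polymerase III machinery found there (21 listed), 0 had one. Counts this small do not set either list apart from all protein-coding genes.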

How the data were processed

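ChIP-seq peak lists of 1 group of 2 biological replicates were analysed, on the ce11 assembly per the file headers. Aligner, peak caller, read placement and depth are not given in the sources used. The deposited score is a transform of the global IDR on a log scale with a ceiling of 1000, and the authors' thresholded sets began at a score of 830, a global IDR of 0.01. The deposited signal is in a unit that the authors do not state. It was compared within a list, except where values of the replicates' own sets stand side by side or beside the medians over bound members. The deposited ranked list also holds the −log10 of the global IDR, used here for a stricter threshold of 0.001. Peak intervals and summit offsets were read as deposited by the authors. Thresholding also used a file of unstated content, per the accompanying notes.

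Members came from the Ensembl gene models and amino acids from RefSeq. A gene was bound where a summit lay in it or within 100 bp. Sequence, GC content and words were read from the RefSeq genome with Python 3.11.15, numpy 2.4.6 and pandas 2.3.3. Shares have exact (Clopper-Pearson) and differences Newcombe 95% intervals from scipy 1.17.1, counting error only, with no p-values. These functions were tested on simulated data. Members, lists, motifs and classes were chosen with earlier results of these data known. Named genes were the 12 strongest bound members, the strongest of each amino acid, 3 bound and 5 unbound members at the threshold and all members of the 4 hosts with the most (ties by gene identifier), with exceptions marked in the text. Pairs of identical genes were drawn from sequences with no copy on chromosome I. Alternatives comprised the other peak sets, thresholds, windows and membership rules.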

Additional observations from a re-analysis of the deposited data

How the results depend on the processing

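The bound share of members was 38.6% and that of outside genes 33.9%, and neither left its interval with the other thresholded set, windows of 50 or 200 bp, interval overlap, nearest-gene assignment, repeated entries left out or other membership rules. With 1 replicate's own set the share ranged from 25.2 to 29.0% for members, from 23.9 to 26.4% for outside genes, from 27.1 to 27.7% on the same strand and from 22.8 to 30.9% on the opposite strand. At a global IDR of at most 0.001 these shares were 20.7%, 22.05%, 20.5% and 21.1%. The difference between members and outside genes turned to -1.23 points in replicate 1's set and to -1.36 points at 0.001, and its interval included 0 in each of the settings named so far, but not among genes with 2 or more copies (9.01 points, 0.127 to 17.7); with 1 copy it was -9.02 points (-22.2 to 4.78). The median signal was 79.6 to 85.2 and the median summit position 21 to 25 bp in the replicates' own sets. Counting copies on the gene with 50 bp on each side left every member single, so that alternative gave the 38.6% of all members. The difference between the extreme classes of flank GC was 59.0 points with 100 bp on both sides, 44.4 points with 50 bp, 37.5 points with 200 bp and 41.4 to 43.5 points in the replicates' own sets. The difference by members per host was -15.5 points among members with up to 36% GC in the 2 flanks together. Of 96 values recomputed for 12 results, 75 moved by less than their interval or spread and 21 by more, and no called difference changed its sign. No paired analysis was possible because the labels give 1 group. The cause of these changes was not tested.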

Other observations

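A summit near a tRNA gene does not show that REF-1 contacts it, and no control library was analysed here. The tRNA genes of an amino acid, of a host and of a sequence family share bases and reads, so they are not independent of one another. The GC content before the gene, the number of tRNA genes in the host, the distance to the next tRNA gene and the copy number move together in part. Their separate parts in the bound share were not tested beyond the subsets given above.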
